A study of Homo sapiens with 24 samples.

Results

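The genes described here are 33 genes of the unfolded protein response, most of which encode chaperones of the endoplasmic reticulum (ER) or parts of ER-associated degradation. They were chosen by name, with earlier results of these data known and with no threshold on their values, and all 33 were found among the 28907 gene symbols of the deposited table. RNA was sequenced from A2780 and ES2, 2 established lines of human ovarian cancer, in 24 libraries that form 8 groups of 3. In each line 1 pair of groups received either a control siRNA (siCtrl) or an siRNA against the kinase gene VRK1 (siVRK1), and the other pair received either DMSO or the plant flavone luteolin. Every library carries the genotype label WT, each line stands for 1 tumour, and the dose of luteolin and the length of each exposure are not stated in the sources used here. Nothing in the labels says that the 3 libraries of a group are separate cultures, so a p-value here reflects the spread between these samples alone, and that spread may be technical.

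The unfolded protein response is the set of signals by which a cell fits the folding capacity of the ER to the load of secreted and membrane proteins. The kinase and nuclease IRE1α (ERN1), the kinase PERK (EIF2AK3) and the membrane-bound transcription factor ATF6 sense unfolded proteins, and each starts its own arm. IRE1α cuts a short segment out of the XBP1 mRNA so that it encodes an active transcription factor, ATF6 is cleaved in the Golgi, and PERK slows translation and raises ATF4 and CHOP (DDIT3). XBP1 and ATF6 raise chaperones, disulfide enzymes and the machinery that extracts misfolded proteins for degradation by the proteasome.

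The siRNA lowered VRK1 from 54.4 ± 0.788 to 9.57 ± 1.68 TPM in A2780 and from 64.6 ± 2.17 to 3.73 ± 0.703 TPM in ES2, where TPM is a length-corrected share of transcripts and values after ± are the SD over 3 libraries throughout. Sequencing depth is unknown because TPM keeps no record of it, and 11792 to 12862 genes reached 1 TPM in a library. The epithelial keratin KRT7 averaged 334 to 486 TPM in the groups of ES2 and at most 0.0104 TPM in those of A2780. Of the ovarian carcinoma markers, PAX8 stayed at or below 2.99 TPM, WT1 at or below 4.12 TPM and MUC16 at or below 0.0199 TPM in all libraries, and CD3E (T cells) and HBB (red cells) were at 0. With luteolin the mean share of TPM on mitochondrial mRNAs was 10.5% against 7.10% with DMSO in A2780 and 7.78% against 4.57% in ES2, without overlap between the libraries in either line. The share on transcripts typed as retained introns was 5.23% against 3.38% in A2780 and 4.53% against 4.33% in ES2. In ES2 the summed TPM of carcinoma markers averaged 653 with siVRK1 against 973 with siCtrl and 735 with luteolin against 976 with DMSO. Of these markers KRT18 averaged 262 against 531 TPM and 207 against 419 TPM in the same pairs. KRT8 averaged 52.7 against 88.0 and 50.6 against 68.1 TPM, and KRT7 334 against 349 and 475 against 486 TPM. The summed TPM of fibroblast markers, mostly COL1A1, was 17.5 with luteolin against 120.3 with DMSO and 57.4 with siVRK1 against 88.3 with siCtrl. That of endothelial markers, mostly CDH5, was 10.2 with luteolin against 38.4 with DMSO in ES2. The part of these shifts in the results below was not tested. Both are cancer cell lines, so the name of a marker does not show that fibroblasts or endothelial cells were present. In bulk RNA, fewer cells of a kind within a line and less RNA per cell cannot be told apart.

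With luteolin the summed level of the list was higher in A2780 and lower in ES2, with no overlap between libraries. In A2780 their summed TPM was 6069 ± 181 with DMSO and 7323 ± 259 with luteolin. In ES2 it was 4575 ± 68.5 with DMSO and 3800.2 ± 164 with luteolin. Their share of all TPM was thus 0.607% and 0.732% in A2780, and 0.458% and 0.380% in ES2. The median log2 change of all genes in the same comparisons was 0.22 in A2780 and -0.00 in ES2. The summed rise in A2780 is not corrected for this shift. With siVRK1 the sum was lower in both lines, at 5303 ± 56.8 against 6084 ± 8.15 TPM with siCtrl in A2780 and 4254 ± 52.8 against 5036 ± 89.3 TPM in ES2.

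Gene by gene, changes were tested on the log2 of TPM + 1 with limma across all genes, and a gene was called at an adjusted p (Benjamini-Hochberg) below 0.05. All fold changes below are differences on this log2 scale, which understates the change of genes near 1 TPM. In A2780 with luteolin 26 of the 33 genes rose and 2 fell, beside 45.6% of all 13012 genes called higher and 19.9% called lower. Their median change was 0.47, and that of all genes 0.22. Median-of-ratios scaling, which centres the genes of each library, moved the median of all genes from 0.22 to -0.01 in this comparison and turned 5938 higher and 2585 lower calls into 3909 and 4519. It left 19 genes of the list higher and 7 lower, with a median of 0.21. Single genes of the list called in this comparison are therefore also given as differences from that median. Values of genes outside the list are not.

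In ES2 with luteolin 5 of 32 genes rose and 16 fell, beside 22.6% of all 12507 genes called higher and 25.8% called lower, with a median of -0.13 against -0.00 for all genes. DERL3 is the gene missing from the 32, since its 0 to 0.522 TPM in ES2 did not reach the minimum of 1 TPM in 3 libraries. With siVRK1 in A2780 1 gene rose and 20 of 33 fell, beside 13.8% of all genes called higher and 27.0% called lower, with a median of -0.24 against -0.08 for all genes. Under median-of-ratios scaling, where all calls moved from 1799 higher and 3519 lower to 2643 and 2695, these counts were 4 and 16. With siVRK1 in ES2 5 of 32 genes rose and 19 fell, beside 26.8% of all genes called higher and 28.0% called lower, with a median of -0.25 against -0.00 for all genes. In each line 17 genes fell that also fell in the other: CALR, CANX, DERL2, DNAJB11, DNAJC3, EDEM1, EDEM2, EIF2AK3, ERO1A, HERPUD1, HSPA5, MANF, PDIA4, PDIA6, SDF2L1, SEC24D and XBP1. Of the 11304 genes tested in both lines, 15.2% were called lower in both. With luteolin only DNAJB9, ERN1, HERPUD1, SYVN1 and XBP1 were called higher in both lines, and SDF2L1 was the single gene called lower in both, beside 15.5% and 10.5% of all genes.

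**Figure D1:**
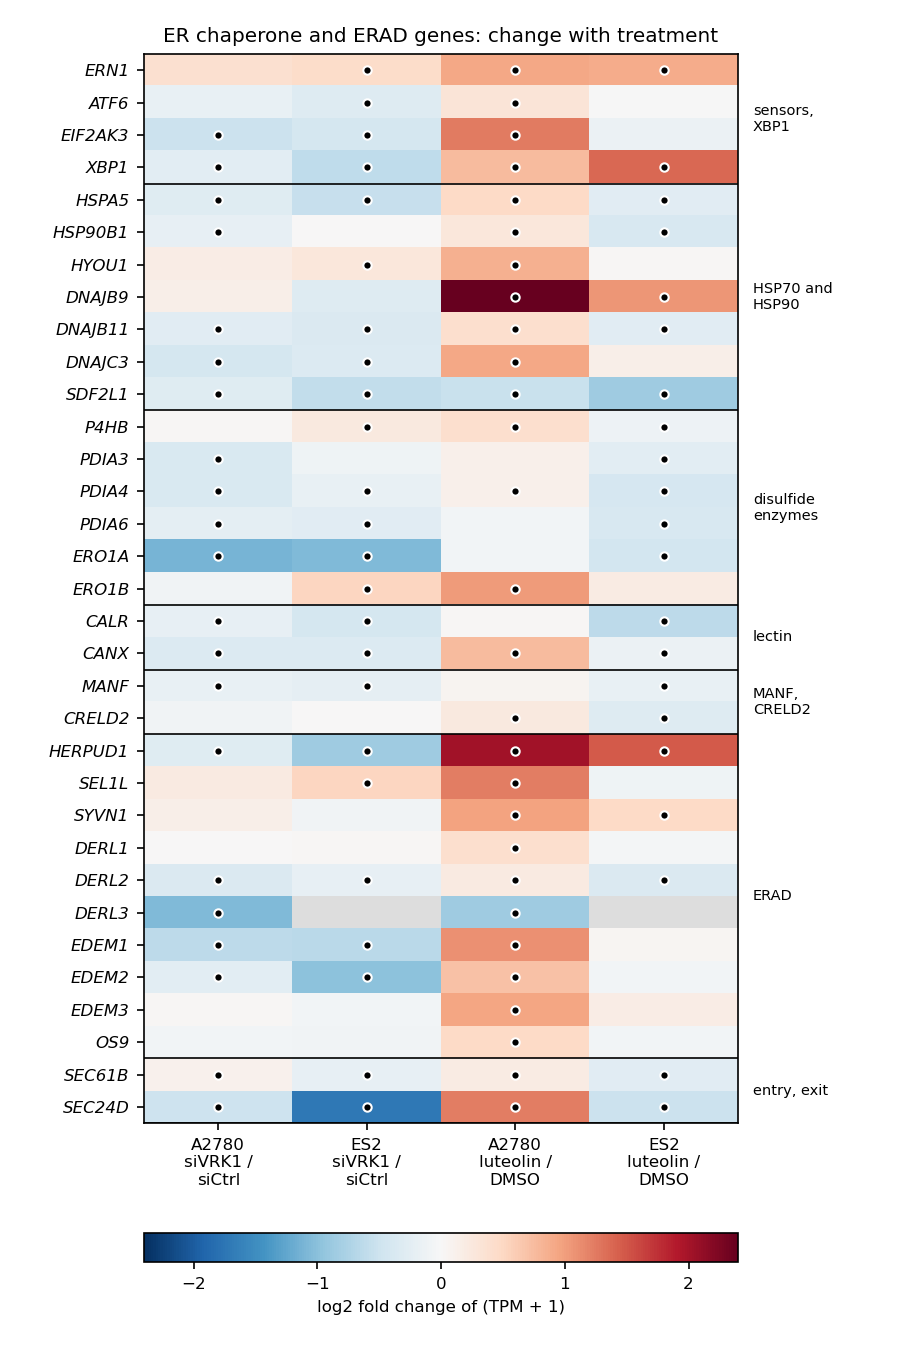
Log2 fold changes of TPM + 1 (colour) for the 33 genes, grouped by role, in the 4 treatment comparisons, with a dot on called genes and grey where DERL3 was not tested. The luteolin column of A2780 holds 26 called rises and that of ES2 16 called falls, and both siVRK1 columns are mostly below 0.

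All 4 sensors and regulators rose with luteolin in A2780, and XBP1 and ERN1 also did in ES2, beside 45.6% and 22.6% of all genes. For ERN1, the mRNA of IRE1α, A2780 libraries held 3.21, 2.42 and 2.84 TPM with DMSO and 6.41, 6.03 and 6.39 TPM with luteolin, and ES2 libraries 6.16, 6.26 and 5.59 and 13.3, 9.104 and 14.3 TPM. No treated library overlapped a control in either line. ERN1 rose by 0.93 (SE 0.15, adjusted p = 0.000163) in A2780, which is 0.72 above the median of all genes, and by 0.90 (SE 0.15, adjusted p = 0.00044) in ES2. For EIF2AK3, the mRNA of PERK, A2780 held 3.66, 3.84 and 5.67 TPM with DMSO and 11.1, 11.7 and 12.2 TPM with luteolin, so the treated libraries all lay above the controls. It rose by 1.25 (SE 0.14, adjusted p = 4.88e-06) there, 1.04 above the median of all genes, while ES2 averaged 3.77 and 3.37 TPM, with overlapping libraries and no call. ATF6 rose in A2780 from 8.91 ± 0.603 to 11.3 ± 0.282 TPM, by 0.31 (SE 0.08, adjusted p = 0.00306), but this change was -0.07 under quantile normalization and was not called under either other scaling. The rise of ATF6 was 0.10 above the median of all genes.

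With siVRK1 2 of these 4 fell in A2780, and 3 fell and 1 rose in ES2. Of all genes, 27.0% were called lower in A2780, and 28.0% lower and 26.8% higher in ES2. EIF2AK3 fell by 0.52 (SE 0.14, adjusted p = 0.00866) in A2780, from 7.101 ± 1.03 to 4.61 ± 0.176 TPM, and by 0.42 (SE 0.15, adjusted p = 0.0322) in ES2, from 4.64 ± 0.796 to 3.19 ± 0.424 TPM. ATF6 fell by 0.30 (SE 0.06, adjusted p = 0.00176) in ES2 and averaged 13.5 and 11.8 TPM in A2780, where it was not called. ERN1 rose in ES2 with siVRK1 by 0.45 (SE 0.15, adjusted p = 0.0264), from 4.33 ± 0.882 to 6.21 ± 0.5601 TPM, and averaged 3.32 and 4.62 TPM in A2780, not called. The A2780 change of ERN1 was 0.38 (SE 0.15, adjusted p = 0.0671). It was called higher under median-of-ratios scaling, quantile normalization and on protein-coding transcripts alone. The ES2 call of EIF2AK3 was lost on protein-coding transcripts alone (adjusted p = 0.102) and with no filter on low genes (adjusted p = 0.0695), and that of ERN1 with no filter (adjusted p = 0.0627). The call of EIF2AK3 was also lost without ES2 siCtrl library 1 or 3 or ES2 siVRK1 library 3 or a (adjusted p of 0.0625 to 0.114), and that of ERN1 without ES2 siCtrl library 1 or 2 or ES2 siVRK1 library a or b (adjusted p of 0.0702 to 0.0919).

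XBP1, the transcription factor downstream of IRE1α, rose with luteolin in both lines, also in ES2, where most chaperones fell. Its TPM was 39.9, 42.6 and 40.4 with DMSO and 108, 97.2 and 120.2 with luteolin in ES2, against 81.1, 79.6 and 91.1 and 152, 142 and 133 in A2780. The groups did not overlap in either line, and the ES2 DMSO libraries were the lowest of the study for this gene. XBP1 rose by 1.38 (SE 0.07, adjusted p = 1.02e-08) in ES2 and by 0.75 (SE 0.06, adjusted p = 4.07e-07) in A2780, 0.54 above the median of all genes. The rise was larger in ES2 by 0.63 (SE 0.09, adjusted p = 1.4e-05), 1 of only 2 genes of the list with a difference in that direction. The other, DERL3, was at most 0.522 TPM in ES2, so its difference is the A2780 fall. With siVRK1 XBP1 fell by 0.26 (SE 0.06, adjusted p = 0.00523) in A2780, from 104 ± 3.54 to 87.1 ± 2.77 TPM, and by 0.61 (SE 0.07, adjusted p = 6.67e-06) in ES2, from 82.5 ± 1.16 to 53.9 ± 2.28 TPM.

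Because the table holds transcripts, the TPM assigned to XBP1 transcripts in the form left after cutting by IRE1α could be followed. This TPM is an estimate per transcript. No reads across the cut were counted here, so it is no direct measure of cutting. In GENCODE release 29 the coding transcripts ENST00000344347 and ENST00000611155 lack 26 bases that the other coding transcripts have. The stretch below comes from ENST00000216037, where its 26 bases (in capitals) are bases 567 to 592 counted from the transcript's 5′ end, and it is shown because its removal is the step that IRE1α carries out; 6 other placements of the gap give the same product. The second line is the joined sequence in ENST00000611155, with no capitals because the join itself has no base.
XBP1 with the segment: cgCAGCACTCAGACTACGTGCACCTCTGca
XBP1 after removal: ctgctgagtccgcagcaggtgcag

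In ES2 the transcripts without the 26 bases made up 2.62%, 3.33% and 5.21% of XBP1 TPM with DMSO and 16.6%, 15.8% and 14.3% with luteolin. In A2780 they made up 5.61%, 4.23% and 6.50% with DMSO and 10.3%, 7.91% and 8.09% with luteolin. In both lines every luteolin library lay above every DMSO library. The difference of the means was 11.9 percentage points in ES2 and 3.31 in A2780, each with p = 0.1 in a two-sided exact permutation test, the smallest p that 3 against 3 libraries allow. As TPM, the form without the segment went from 1.52 ± 0.540 to 16.9 ± 1.39 in ES2 and from 4.61 ± 1.28 to 12.5 ± 2.68 in A2780. The form with it went from 38.7 ± 2.11 to 89.9 ± 8.82 in ES2 and from 78.7 ± 4.07 to 123 ± 4.53 in A2780. Both forms were thus higher in every luteolin library than in every DMSO library of the line.

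With siVRK1 the share without the segment was 7.05%, 9.03% and 9.04% in A2780 against 9.74%, 9.31% and 10.2% with siCtrl, with no overlap and an exact permutation p of 0.1. In ES2 it was 2.38%, 4.11% and 8.72% against 7.91%, 8.06% and 7.57%, with overlap through 1 siVRK1 library and an exact permutation p of 0.4. The shares were added over 2 transcripts after the data had been seen, since the split of TPM between them varied from library to library. Of the single transcripts, 20 tests were run, and the lowest adjusted p was 0.286.

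**Figure D2:**
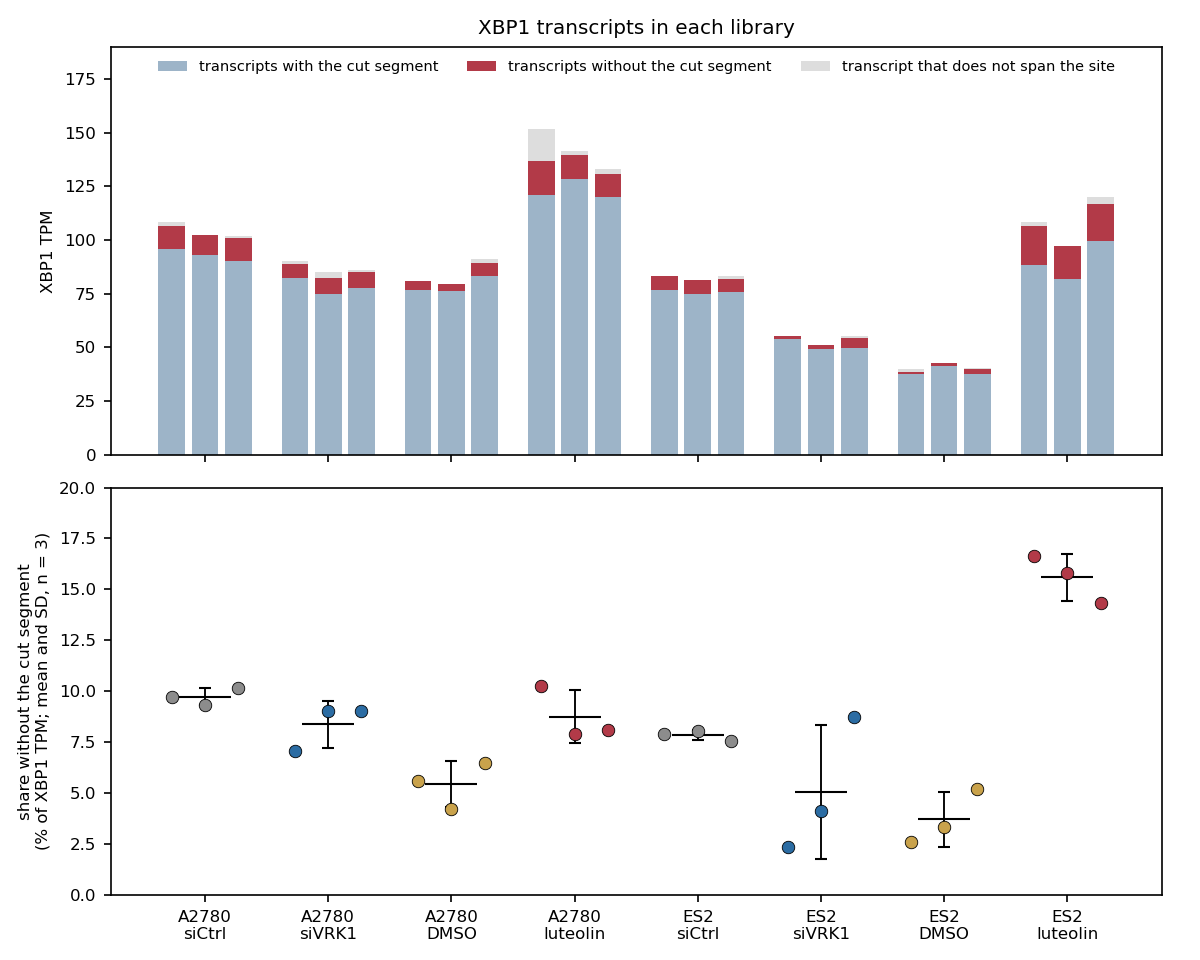
Upper panel, XBP1 TPM in each of the 24 libraries (stacked bars) on transcripts with the 26 bases, without them and, in grey, on 1 that does not span the site. Lower panel, the share of XBP1 TPM without them (percent, points), with the mean and SD over 3 libraries of each group. ES2 luteolin libraries stand at 14.3% to 16.6%, above all others, and ES2 DMSO libraries at 2.62% to 5.21%.

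Among the HSP70 and HSP90 machinery, 6 of 7 genes rose with luteolin in A2780 and 4 of 7 fell in ES2. Of all genes, 45.6% were called higher in A2780 and 25.8% lower in ES2. HSPA5 encodes BiP, the ER HSP70 that binds unfolded chains and holds the sensors inactive. Its TPM was 387, 377 and 401 with DMSO and 549, 554 and 519 with luteolin in A2780, and 248, 257 and 262 with DMSO and 213, 187 and 240.5 with luteolin in ES2. All treated A2780 libraries lay above their controls and all treated ES2 libraries below theirs. HSPA5 rose by 0.48 (SE 0.04, adjusted p = 5e-07) in A2780, 0.26 above the median of all genes, and fell by 0.27 (SE 0.07, adjusted p = 0.00555) in ES2, a call that quantile normalization ended (adjusted p = 0.169). With siVRK1 it was 346, 334 and 324 against 416, 408 and 402 TPM in A2780 and 232, 234 and 238 against 349, 342 and 348 TPM in ES2. These groups did not overlap, and HSPA5 fell by 0.29 (SE 0.04, adjusted p = 0.000132) and 0.56 (SE 0.07, adjusted p = 1.63e-05).

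HSP90B1 encodes GRP94, the ER HSP90. With luteolin it went from 573 ± 37.5 to 695 ± 28.7 TPM in A2780 and from 551 ± 15.8 to 422 ± 12.9 TPM in ES2. The rise of 0.28 (SE 0.05, adjusted p = 0.000311) in A2780 was only 0.06 above the median of all genes and was not called under median-of-ratios scaling, and the fall in ES2 was 0.38 (SE 0.03, adjusted p = 2.32e-06). With siVRK1 it fell by 0.20 (SE 0.05, adjusted p = 0.0062) in A2780 and averaged 499 and 501 TPM in ES2, with no call. HYOU1, the nucleotide exchange factor of BiP known as GRP170, had 131, 123 and 142 TPM with DMSO and 237, 252 and 223 TPM with luteolin in A2780. It rose by 0.84 (SE 0.07, adjusted p = 4.03e-07), 0.63 above the median of all genes, while ES2 stayed at 45.8 and 47.1 TPM on average, with overlap. HYOU1 also rose with siVRK1 in ES2, by 0.27 (SE 0.07, adjusted p = 0.00501). Its change with siVRK1 in A2780 was 0.18 (SE 0.07, adjusted p = 0.06). That was not called, but was called higher under median-of-ratios scaling and quantile normalization.

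DNAJB9 (ERdj4), a J-domain partner of BiP, had the largest rise of the list with luteolin in A2780, though not in ES2. A2780 libraries held 5.97, 5.96 and 8.69 TPM with DMSO and 40.7, 43.2 and 36.01 TPM with luteolin, and ES2 libraries 3.69, 4.47 and 3.91 and 8.97, 9.85 and 9.74 TPM. Treated and control libraries were far apart in both lines. It rose by 2.39 (SE 0.15, adjusted p = 3.54e-08) in A2780, 2.18 above the median of all genes, and by 1.07 (SE 0.13, adjusted p = 2.56e-05) in ES2, where the rise was smaller by 1.33 (SE 0.21, adjusted p = 2.59e-05). Its exons overlap those of PNPLA8 and THAP5 on the other strand, which reached 13.4 and 24.8 TPM at most, and whether counting used strand is not stated in the sources used here. DNAJC3 (P58IPK), a BiP partner that also restrains PERK, rose with luteolin by 0.93 (SE 0.08, adjusted p = 4.62e-07) in A2780, 0.71 above the median of all genes, from 12.8 ± 1.02 to 25.3 ± 1.001 TPM and fell with siVRK1 by 0.42 (SE 0.08, adjusted p = 0.000934) and 0.33 (SE 0.07, adjusted p = 0.00239) in A2780 and ES2. DNAJB11 (ERdj3) rose in A2780 with luteolin by 0.40 (SE 0.05, adjusted p = 2.82e-05), 0.18 above the median of all genes, fell in ES2 by 0.27 (SE 0.05, adjusted p = 0.0014), and fell with siVRK1 in both lines.

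SDF2L1, which works with DNAJB11 in the BiP cycle, was the exception of this role with luteolin in A2780. Its TPM was 189, 189 and 179 with DMSO and 127, 143 and 114 with luteolin in A2780, and 68.8, 76.1 and 73.2 and 36.2, 43.4 and 40.1 in ES2. The treated libraries were below all controls in both lines. SDF2L1 fell by 0.54 (SE 0.07, adjusted p = 3.8e-05) in A2780, which is -0.75 from the median of all genes, and by 0.85 (SE 0.06, adjusted p = 3.1e-07) in ES2. With siVRK1 it fell by 0.29 (SE 0.07, adjusted p = 0.0079) in A2780, a call that ended under median-of-ratios scaling (adjusted p = 0.0539), and by 0.60 (SE 0.06, adjusted p = 4.01e-06) in ES2.

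**Figure D3:**
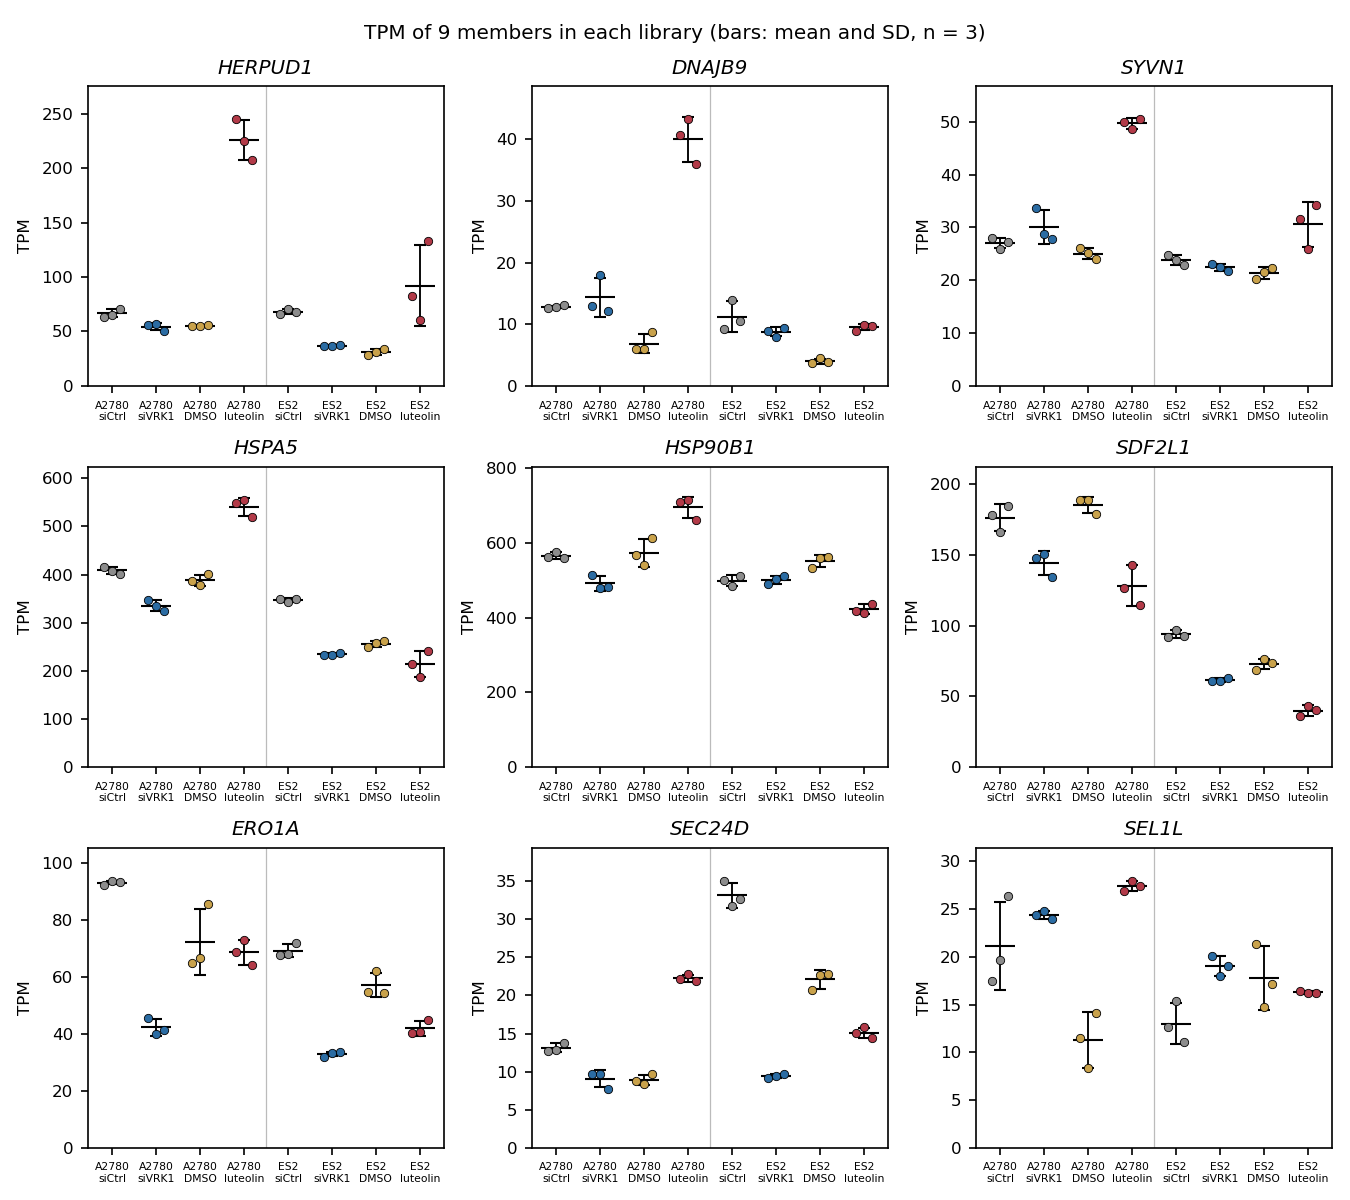
TPM of selected genes of the list in each library (points, linear axis from 0) by group, with the mean and SD over 3 libraries as bars. HERPUD1 and DNAJB9 are higher in all luteolin libraries than in the DMSO libraries of both lines, and HSPA5 is higher in A2780 and lower in ES2.

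Of the disulfide enzymes, which form and reshuffle disulfide bonds, 3 of 6 rose with luteolin in A2780 and 5 of 6 fell in ES2. Of all genes, 45.6% were called higher in A2780, near the share of this role, and 25.8% lower in ES2. The median of the role in A2780 was 0.12, which is -0.10 from that of all genes. P4HB, the classical protein disulfide isomerase, went from 377 ± 4.72 to 501 ± 20.9 TPM in A2780 and from 453 ± 5.89 to 416 ± 7.78 TPM in ES2. The changes were 0.41 (SE 0.04, adjusted p = 2.86e-06), 0.19 above the median of all genes, and -0.13 (SE 0.03, adjusted p = 0.00255), the second not called under quantile normalization (adjusted p = 0.8). PDIA4 rose by 0.12 (SE 0.04, adjusted p = 0.022) in A2780, which is -0.10 relative to the median of all genes, and became -0.14 (adjusted p = 0.0244) under median-of-ratios scaling. Its A2780 call was also lost without A2780 DMSO library 2 or A2780 luteolin library 1 (adjusted p of 0.0904 to 0.0909). In ES2 PDIA4 fell with luteolin by 0.41 (SE 0.03, adjusted p = 9.05e-07), from 231 ± 6.88 to 173 ± 4.33 TPM. PDIA3 (ERp57) and PDIA6 fell in ES2 by 0.25 (adjusted p = 0.000733) and 0.38 (adjusted p = 1.03e-05), and in A2780 averaged 553 and 602 TPM and 349 and 331 TPM, not called. ERO1B, an oxidase that recharges the isomerases, rose in A2780 by 1.02 (SE 0.12, adjusted p = 8.36e-06), 0.80 above the median of all genes, from 4.66 ± 0.781 to 10.4 ± 0.828 TPM, and was low in ES2, with 0.904 to 2.59 TPM.

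The largest siVRK1 response of this role was in ERO1A, the main ER oxidase, which is also known as a hypoxia-inducible gene. Its TPM was 92.4, 93.6 and 93.5 with siCtrl and 45.7, 39.98 and 41.6 with siVRK1 in A2780, and 67.8, 68.2 and 71.96 and 32.1, 33.2 and 33.5 in ES2. The siVRK1 libraries of both lines lay below every siCtrl library, and the libraries of each group were close to each other. ERO1A fell by 1.12 (SE 0.09, adjusted p = 1.98e-06) in A2780 and by 1.05 (SE 0.06, adjusted p = 2.45e-08) in ES2, and the difference between the lines was 0.07 (SE 0.12, adjusted p = 0.688), not called. With luteolin it fell in ES2 by 0.44 (SE 0.06, adjusted p = 8.23e-05), a call that ended on protein-coding transcripts alone (-0.18, adjusted p = 0.174), and averaged 72.4 and 68.7 TPM in A2780, with overlap. PDIA4 fell with siVRK1 by 0.36 (SE 0.04, adjusted p = 2.58e-05) in A2780 and 0.19 (SE 0.03, adjusted p = 0.000446) in ES2. On transcripts that GENCODE 29 types as protein coding alone, the first was not called (adjusted p = 0.0505) and the second turned to 0.09 (adjusted p = 0.49). Between 82.4% and 88.3% of PDIA4 TPM (group means) was on transcripts outside that release. PDIA6 fell in both lines, by 0.24 (adjusted p = 0.00126) and 0.28 (adjusted p = 8.89e-05), and PDIA3 fell by 0.37 (SE 0.06, adjusted p = 0.000214) in A2780. P4HB and ERO1B instead rose with siVRK1 in ES2, by 0.23 (SE 0.03, adjusted p = 1.95e-05) and 0.52 (SE 0.16, adjusted p = 0.0137).

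The lectin chaperones calreticulin (CALR) and calnexin (CANX) hold newly made glycoproteins during folding. CALR was the most abundant mRNA of the list, with 1568, 1524 and 1563 TPM in A2780 with DMSO and 1689, 1506 and 1586 TPM with luteolin, which overlapped. In ES2 it had 951, 986 and 966 TPM with DMSO and 599, 636 and 631 TPM with luteolin. The ES2 groups were well apart, and CALR fell there by 0.64 (SE 0.04, adjusted p = 3.73e-08). With siVRK1 CALR fell by 0.20 (SE 0.04, adjusted p = 0.00375) in A2780, a call that ended under median-of-ratios scaling (adjusted p = 0.247), and by 0.42 (SE 0.04, adjusted p = 8.25e-07) in ES2. CANX rose with luteolin by 0.76 (SE 0.07, adjusted p = 1.72e-06) in A2780, from 229.8 ± 31.5 to 388 ± 17.3 TPM and 0.55 above the median of all genes, and fell by 0.14 (SE 0.04, adjusted p = 0.00615) in ES2, where it turned to 0.04 under quantile normalization. With siVRK1 it fell by 0.32 (SE 0.07, adjusted p = 0.00414) and 0.33 (SE 0.04, adjusted p = 6.51e-06) in A2780 and ES2. In ES2 72.7% to 77.5% of CANX TPM (group means) was on transcripts outside GENCODE 29, against 3.06% to 11.2% in A2780. CANX counts below as higher in the ES2 controls, but was -2.06 there on protein-coding transcripts alone, so the direction between the lines depends on the transcripts counted.

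CRELD2 and MANF, small ER proteins that are secreted under stress, changed by at most 0.31 with either treatment. CRELD2 rose with luteolin by 0.24 (SE 0.07, adjusted p = 0.00885) in A2780, 0.02 above the median of all genes and -0.02 under median-of-ratios scaling, and fell by 0.31 (SE 0.07, adjusted p = 0.00285) in ES2. MANF averaged 252 and 266 TPM in A2780, not called, and fell by 0.18 (SE 0.05, adjusted p = 0.00637) in ES2, not called under quantile normalization (adjusted p = 0.079). With siVRK1 MANF fell by 0.19 (SE 0.06, adjusted p = 0.0294) in A2780 and 0.22 (SE 0.05, adjusted p = 0.00129) in ES2. The A2780 call was lost without A2780 siCtrl library 1 or 3 or A2780 siVRK1 library 1 or 3 (adjusted p of 0.068 to 0.1) and under both other scalings. CRELD2 was called in neither line with siVRK1, at 76.04 and 71.3 TPM in A2780 and 33.5 and 33.6 TPM in ES2.

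In A2780 9 of 10 genes of ER-associated degradation rose with luteolin, beside 45.6% of all genes. The summed TPM of the 10 went from 308 ± 11.5 to 594 ± 23.3. In ES2 2 of 9 rose, near the 22.6% of all genes, and 1 fell, beside 25.8%. The sum was 349 ± 5.87 with DMSO and 397 ± 52.4 with luteolin, and the libraries overlapped. HERPUD1, described next, made up most of the summed rise in A2780 and more than all of it in ES2. HERPUD1, which organises the HRD1 ubiquitin ligase complex, had 55.1, 54.7 and 55.7 TPM with DMSO and 245, 225 and 207 TPM with luteolin in A2780. In ES2 it had 28.4, 31.6 and 33.5 and 82.3, 60.8 and 133 TPM. All luteolin libraries were above all DMSO libraries of their line, and the ES2 luteolin libraries lay far apart from each other. HERPUD1 rose by 2.01 (SE 0.07, adjusted p = 2.03e-10) in A2780, 1.79 above the median of all genes, and by 1.46 (SE 0.20, adjusted p = 6.11e-05) in ES2. On protein-coding transcripts alone its TPM went from 31.1 ± 0.531 to 93.3 ± 23.6 in A2780 and from 18.2 ± 1.01 to 43.1 ± 9.58 in ES2, and the rest was on transcripts of other types, whose share in A2780 was 43.6% with DMSO and 59.0% with luteolin.

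SYVN1 encodes HRD1 itself, and SEL1L its partner. SYVN1 rose with luteolin by 0.96 (SE 0.07, adjusted p = 1.64e-07) in A2780, 0.75 above the median of all genes, from 25.02 ± 1.06 to 49.7 ± 0.977 TPM, and by 0.49 (SE 0.08, adjusted p = 0.000487) in ES2, from 21.4 ± 1.103 to 30.6 ± 4.21 TPM. Its exons overlap those of FAU on the same strand, a gene that reached 3278 TPM, so its level is uncertain. SEL1L had 11.5, 8.32 and 14.1 TPM with DMSO and 26.9, 27.9 and 27.4 TPM with luteolin in A2780. The treated libraries were nearly equal and above all controls, and SEL1L rose by 1.24 (SE 0.16, adjusted p = 2.03e-05), 1.02 above the median of all genes. In ES2 it averaged 17.8 and 16.3 TPM, not called, and rose with siVRK1 by 0.52 (SE 0.12, adjusted p = 0.00337). OS9, a lectin that brings glycoproteins to this complex, rose in A2780 by 0.47 (SE 0.05, adjusted p = 1.56e-06), 0.25 above the median of all genes, and averaged 81.8 and 78.1 TPM in ES2.

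The EDEM proteins trim mannose from glycoproteins that fail to fold. EDEM1 rose in A2780 with luteolin from 14.2 ± 1.28 to 31.6 ± 3.45 TPM, EDEM2 from 10.2 ± 0.599 to 17.2 ± 1.28 TPM and EDEM3 from 8.97 ± 0.786 to 18.2 ± 1.05 TPM. The rises were 1.10 (SE 0.15, adjusted p = 3.27e-05), 0.70 (SE 0.09, adjusted p = 2.92e-05) and 0.95 (SE 0.09, adjusted p = 1.09e-06), or 0.88, 0.48 and 0.73 above the median of all genes. None of the 3 was called with luteolin in ES2, at means of 20.8 and 21.6, 24.9 and 23.7, and 11.3 and 12.9 TPM. With siVRK1 EDEM2 had 23.5, 23.4 and 20.8 TPM against 45.2, 44.6 and 47.3 TPM with siCtrl in ES2, which is clear of overlap. It fell by 0.99 (SE 0.06, adjusted p = 4.09e-08) there and by 0.26 (SE 0.09, adjusted p = 0.045) in A2780. The A2780 call was lost under both other scalings and without A2780 siCtrl library 1 or 2 or A2780 siVRK1 library 2 or 3 (adjusted p of 0.0815 to 0.174). EDEM1 fell with siVRK1 by 0.62 (SE 0.15, adjusted p = 0.00508) in A2780 and 0.66 (SE 0.09, adjusted p = 5.79e-05) in ES2, and EDEM3 was called in neither line, at 14.4 and 14.7 TPM in A2780 and 15.9 and 15.05 TPM in ES2. HERPUD1 fell with siVRK1 by 0.29 (SE 0.07, adjusted p = 0.00425) in A2780 and 0.86 (SE 0.20, adjusted p = 0.00245) in ES2, and the A2780 call ended on protein-coding transcripts alone (adjusted p = 0.107).

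The Derlins are membrane proteins of the channel through which misfolded proteins leave the ER. DERL1 rose with luteolin by 0.41 (SE 0.09, adjusted p = 0.00101) in A2780, 0.19 above the median of all genes and not called under median-of-ratios scaling, and averaged 65.2 and 63.2 TPM in ES2. DERL2 rose in A2780 by 0.21 (SE 0.07, adjusted p = 0.0203), a change at the median of all genes and -0.04 under median-of-ratios scaling. Its luteolin and DMSO libraries overlapped there, and the call was lost without A2780 DMSO library 2 or 3 or A2780 luteolin library 1 or 2 (adjusted p of 0.0524 to 0.0935). In ES2 DERL2 fell with luteolin by 0.34 (SE 0.06, adjusted p = 0.000654), and with siVRK1 by 0.35 (SE 0.07, adjusted p = 0.00206) in A2780 and 0.19 (SE 0.06, adjusted p = 0.0188) in ES2, where the call was lost without ES2 siCtrl library 1 or ES2 siVRK1 library a (adjusted p of 0.0731 to 0.0835) and under quantile normalization (adjusted p = 0.0915). The A2780 call ended on protein-coding transcripts alone (adjusted p = 0.068). DERL3 had 15.6, 16.4 and 16.1 TPM with DMSO and 8.38, 9.08 and 7.81 TPM with luteolin in A2780, and 12.4, 15.00 and 15.5 and 8.02, 6.52 and 4.79 TPM with siCtrl and siVRK1. It was lower in every treated library, and fell by 0.86 (SE 0.14, adjusted p = 0.000136) with luteolin, -1.07 from the median of all genes, and by 1.06 (SE 0.14, adjusted p = 7.8e-05) with siVRK1. Its exons overlap SMARCB1 on the other strand, which reached 129.6 TPM.

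Of the genes for entry to and exit from the ER, SEC24D, a cargo-binding subunit of the COPII coat, gave the strongest siVRK1 response of the list in ES2. It had 34.95, 31.7 and 32.6 TPM with siCtrl and 9.15, 9.44 and 9.698 TPM with siVRK1 in ES2, and 12.6, 12.9 and 13.8 and 9.63, 9.75 and 7.77 TPM in A2780. With luteolin it had 22.1, 22.8 and 21.9 against 8.797, 8.41 and 9.69 TPM with DMSO in A2780, and 15.02, 15.8 and 14.4 against 20.7, 22.7 and 22.8 TPM in ES2. None of these pairs of groups overlapped. SEC24D fell with siVRK1 by 1.71 (SE 0.06, adjusted p = 7.13e-10) in ES2 and 0.49 (SE 0.09, adjusted p = 0.000863) in A2780. With luteolin it rose by 1.22 (SE 0.09, adjusted p = 1.53e-07) in A2780, 1.01 above the median of all genes, and fell by 0.52 (SE 0.06, adjusted p = 2.85e-05) in ES2. SEC61B, a small subunit of the translocation channel, rose in A2780 by 0.10 (SE 0.04, adjusted p = 0.0414) with siVRK1 and 0.20 (SE 0.04, adjusted p = 0.0005) with luteolin. The second was -0.02 from the median of all genes and turned to -0.06 under median-of-ratios scaling. SEC61B fell in ES2 by 0.19 (SE 0.04, adjusted p = 0.00134) with siVRK1, not called under quantile normalization (adjusted p = 0.0935), and by 0.28 (SE 0.04, adjusted p = 0.000103) with luteolin. The siVRK1 call in A2780, the only rise of the list there, was lost without A2780 siCtrl library 1 or 2 or 3 or A2780 siVRK1 library 1 or 2 (adjusted p of 0.0705 to 0.159), and leaving out 1 library gave 0 to 2 rises.

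The change with luteolin was then compared between the lines in 1 fit over all 24 libraries. It was lower in ES2 than in A2780 for 30 of the 33 genes and higher for 2, beside 35.8% and 14.7% of all 14328 genes, and the 2 were XBP1 and DERL3. DERL3 was at most 0.522 TPM in ES2, so its value is the A2780 fall set against a gene near 0, and it was not called with a pseudocount of 0.1 (adjusted p = 0.223). The median difference was -0.55 for the list and -0.20 for all genes. Median-of-ratios scaling moved the latter to -0.02 and all calls from 2104 higher and 5125 lower to 3594 and 3471, and left 2 genes of the list higher and 22 lower, with a median of -0.34. The calls it ended were those of ATF6, SDF2L1, PDIA3, PDIA6, ERO1A, MANF, HERPUD1 and DERL1. Relative to the median of all genes, the differences were widest for SEC24D at -1.55, EIF2AK3 at -1.20, SEL1L at -1.14, DNAJB9 at -1.13 and EDEM1 at -0.86. ERN1 alone was not called, at -0.04 (SE 0.22, adjusted p = 0.905). The difference for HERPUD1, -0.55 (SE 0.23, adjusted p = 0.0494), was not called under median-of-ratios scaling or on protein-coding transcripts, and was lost without A2780 DMSO library 1 or 2 or 3, A2780 luteolin library 1 or 2, ES2 DMSO library 2 or 3 or ES2 luteolin library 1 or 2 (adjusted p of 0.0669 to 0.165). That for ATF6 turned from -0.33 to 0.03 under quantile normalization.

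**Figure D4:**
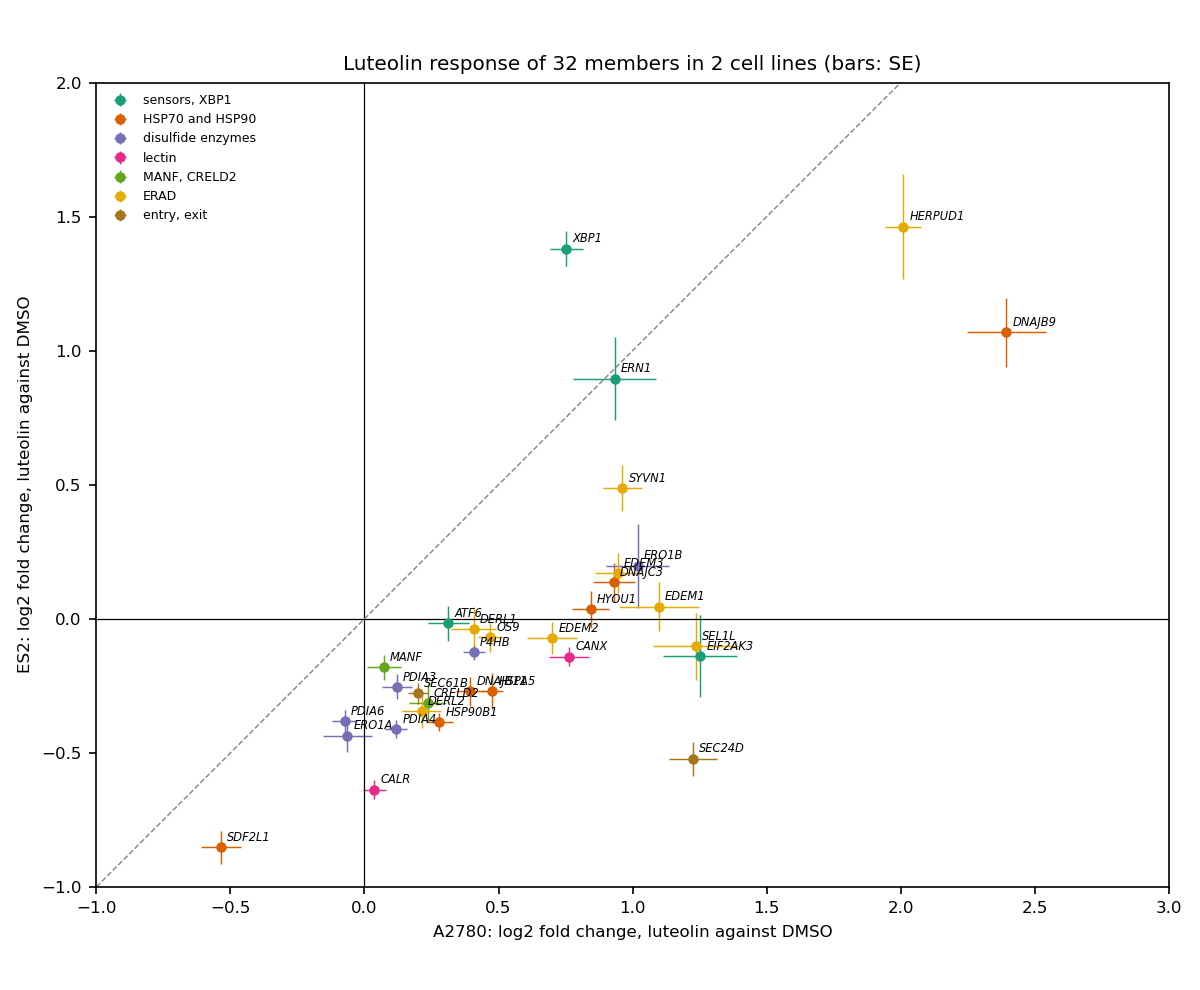
Log2 fold change with luteolin in ES2 (vertical) against A2780 (horizontal) for the 32 genes tested in both lines, coloured by role, with SE bars and a dashed line of equal change. Most points are right of 0 and below 0, and XBP1, HERPUD1, DNAJB9, ERN1 and SYVN1 lie above 0 on both axes.

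With siVRK1 fewer genes of the list differed between the lines. The change was higher in ES2 for 6 genes and lower for 7 of 33, beside 20.7% and 13.2% of all genes called higher and lower, with medians of -0.03 for the list and 0.07 for all genes. Under median-of-ratios scaling, where all calls were 2245 higher and 2768 lower in place of 2962 and 1897, these counts were 2 and 13. The falls were larger in ES2 for SEC24D by 1.21 (SE 0.10, adjusted p = 1.89e-08) and EDEM2 by 0.73 (SE 0.11, adjusted p = 2.05e-05), and also for XBP1, SDF2L1, HSPA5 and CALR. SEC61B had the seventh difference in this direction, with a rise in A2780 and a fall in ES2. The call of SDF2L1 was lost without A2780 siCtrl library 2 or A2780 siVRK1 library 2 (adjusted p of 0.0539 to 0.0589), and that of CALR under quantile normalization (adjusted p = 0.621). The 6 genes higher in ES2 were PDIA3, PDIA4, P4HB, HSP90B1, ERO1B and DERL3, and the first 4 were not called under median-of-ratios scaling, PDIA3 and PDIA4 also not on protein-coding transcripts alone. DERL3 was near 0 in ES2 and passed the filter only through A2780, so its value is the A2780 fall alone, and it was not called with a pseudocount of 0.1 (adjusted p = 0.136). The call of ERO1B was lost without A2780 siVRK1 library 2 (adjusted p of 0.0509) and under quantile normalization (adjusted p = 0.065).

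Within each line the change with luteolin was also set against the change with siVRK1, which have separate controls. In A2780 luteolin exceeded siVRK1 for 30 of 33 genes and was below it for 0, beside 43.3% and 14.3% of all genes. The medians were 0.67 for the list and 0.30 for all genes. Median-of-ratios scaling moved the latter to -0.01 and all calls from 5631 higher and 1861 lower to 3289 and 3909, and gave 17 genes of the list higher and 3 lower, with CALR at -0.12, CRELD2 at -0.02, MANF at -0.09 and PDIA6 at -0.18 turned in direction. Relative to the median of all genes the widest differences were HERPUD1 at 1.999, DNAJB9 at 1.96, EIF2AK3 at 1.47, SEC24D at 1.42 and EDEM1 at 1.42. The call of ERN1 was lost without A2780 DMSO library 2 or 3, A2780 luteolin library 1 or 2 or 3, A2780 siCtrl library 1 or 3 or A2780 siVRK1 library 2 or 3 (adjusted p of 0.0609 to 0.109), that of MANF without A2780 luteolin library 1 or 2, A2780 siCtrl library 3 or A2780 siVRK1 library 1 (adjusted p of 0.0521 to 0.0606), and that of PDIA6 without A2780 DMSO library 1 or 2, A2780 luteolin library 1 or 2, A2780 siCtrl library 1 or 2 or 3 or A2780 siVRK1 library 2 or 3 (adjusted p of 0.0606 to 0.105). In A2780 13 genes were called lower with siVRK1 and higher with luteolin, among them HSPA5, XBP1, HERPUD1 and SEC24D, beside 9.41% of all genes.

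In ES2 luteolin exceeded siVRK1 for 12 of 32 genes and was below it for 7, beside 25.8% and 26.0% of all genes, with medians of 0.06 and 0.01. HERPUD1 differed by 2.32 (SE 0.28, adjusted p = 2.02e-05), XBP1 by 1.99 (SE 0.09, adjusted p = 8.93e-09), DNAJB9 by 1.37 (SE 0.18, adjusted p = 4.77e-05) and SEC24D by 1.19 (SE 0.09, adjusted p = 4.52e-07). Luteolin was below siVRK1 for HSP90B1 by 0.39 (SE 0.05, adjusted p = 3.09e-05), and for P4HB by 0.35 (SE 0.04, adjusted p = 1.12e-05). In ES2 12 genes were called lower with both treatments, among them HSPA5, CALR, PDIA6, SDF2L1 and ERO1A, beside 9.88% of all genes. HERPUD1 and XBP1, 2 of 32 genes, were lower with siVRK1 and higher with luteolin, beside 5.54% of all genes.

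The control libraries of the lines also differed. Averaged over siCtrl and DMSO, 11 of 33 genes were higher in ES2 and 21 lower, beside 34.3% and 49.4% of all genes called higher and lower, with medians of -0.39 and -0.17. The median of all genes was -0.03 under median-of-ratios scaling. DERL3 stood out, at 14.3 and 16.03 TPM in the A2780 controls and 0.04200 and 0.301 TPM in those of ES2. HYOU1 was lower in ES2 by 1.53 (SE 0.05, adjusted p = 3.82e-17), and EDEM2 and SEC24D higher by 1.40 (SE 0.05, adjusted p = 6.25e-16) and 1.24 (SE 0.05, adjusted p = 2.69e-15). HSP90B1, lower in ES2 by 0.12 (SE 0.03, adjusted p = 0.00133), turned to 0.04 under median-of-ratios scaling. Levels also differed between the 2 kinds of control within a line. In ES2 XBP1 averaged 82.5 TPM with siCtrl and 40.95 with DMSO, HERPUD1 67.96 and 31.1, and DNAJB9 11.2 and 4.03. In A2780 DNAJB9 averaged 12.8 and 6.87, EIF2AK3 7.101 and 4.39, and CANX 311 and 229.8 TPM. Each treatment is therefore read only against its own control.

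Around the list, 85 other genes of the same organelle and signal were counted in 7 lists. The genes listed for the PERK arm, which runs through eIF2α, ATF4 and CHOP, were called in the same direction in both lines with luteolin. Of the 8 genes 7 were higher and 1 lower, with medians of 0.86 in A2780 and 1.95 in ES2. Only mRNA was measured, so the activity of PERK was not tested. Of all genes, 45.6% were called higher and 19.9% lower in A2780, and 22.6% and 25.8% in ES2, with medians of 0.22 and -0.00. DDIT3 (CHOP) had 21.8, 19.2 and 17.6 TPM with DMSO and 127, 114 and 103 TPM with luteolin in A2780, and 10.2, 10.4 and 13.7 and 91.6, 57.8 and 113 TPM in ES2. It rose by 2.49 (SE 0.09, adjusted p = 2.85e-10) and 2.79 (SE 0.19, adjusted p = 1.95e-07), with all treated libraries above the controls. CHAC1, a glutathione-degrading enzyme downstream of ATF4, had 0.711, 0.757 and 0.692 TPM with DMSO and 23.1, 19.7 and 27.8 TPM with luteolin in ES2. It rose there by 3.82 (SE 0.12, adjusted p = 5.26e-10), and in A2780 by 1.01 (SE 0.06, adjusted p = 2.83e-08), from 62.9 ± 2.27 to 127 ± 7.97 TPM. DDIT3 in ES2 and CHAC1 in A2780 with luteolin were named after their values were seen. ATF3 rose by 2.93 (SE 0.14, adjusted p = 4.58e-09) in A2780 and 2.83 (SE 0.44, adjusted p = 0.000224) in ES2. EIF2S1, the mRNA of eIF2α, was the gene that fell, by 0.20 (adjusted p = 0.0117) and 0.31 (adjusted p = 4.13e-05). With siVRK1 this list gave 1 rise and 1 fall of 8 in A2780 and 1 rise and 3 falls in ES2. Of all genes, 13.8% were called higher and 27.0% lower in A2780, and 26.8% and 28.0% in ES2. CHAC1 rose by 0.47 (SE 0.06, adjusted p = 6.82e-05) and 0.51 (SE 0.12, adjusted p = 0.00405), EIF2S1 fell by 0.28 (adjusted p = 0.00273) and 0.46 (adjusted p = 7.55e-07), and ATF4 fell in ES2 by 0.28 (SE 0.07, adjusted p = 0.0061).

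Over all 85 genes, luteolin gave 59 rises and 11 falls in A2780 and 23 rises and 29 falls in ES2, and siVRK1 gave 18 and 23 in A2780 and 22 and 39 in ES2. The luteolin calls were 69.4% higher and 12.9% lower of the 85 in A2780, beside 45.6% and 19.9% of all genes, and 27.1% and 34.1% in ES2, beside 22.6% and 25.8%. The siVRK1 calls were 21.2% and 27.1% in A2780, beside 13.8% and 27.0%, so the share that fell was near that of all genes. In ES2 they were 25.9% and 45.9%, beside 26.8% and 28.0%. Of 15 genes for entry into the ER, 12 rose and 1 fell with luteolin in A2780, while 1 rose and 8 fell in ES2. SEC61A1, the pore of the translocation channel, rose in A2780 by 0.85 (SE 0.04, adjusted p = 5.67e-09), and SSR3, a subunit of the translocon-associated complex, fell in ES2 by 0.62 (SE 0.04, adjusted p = 2.24e-07). Of 9 COPII coat genes, 6 rose and 1 fell with luteolin in A2780 and 0 rose and 4 fell in ES2, among them SEC23A by 0.36 (SE 0.06, adjusted p = 0.000499). Of 19 other degradation genes, 14 rose and 2 fell with luteolin in A2780 and 5 rose and 5 fell in ES2. VCP, the ATPase that pulls proteins out of the membrane, fell in ES2 from 215 ± 4.52 to 117 ± 1.05 TPM, by 0.87 (SE 0.03, adjusted p = 5.77e-10). The 8 genes of glycan trimming gave 7 rises and 0 falls in A2780 and 4 rises and 1 fall in ES2, with UGGT2 in A2780 up by 0.85 (SE 0.12, adjusted p = 5.56e-05). Of 15 other folding genes, 10 rose and 4 fell in A2780, with FKBP14 up by 0.98 (SE 0.12, adjusted p = 9.69e-06), and 5 rose and 5 fell in ES2, with ERP29 up by 0.80 (SE 0.04, adjusted p = 8.61e-09).

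With siVRK1 single genes around the list moved in both directions. SPCS3, a subunit of signal peptidase, fell from 176 ± 11.5 to 89.5 ± 0.871 TPM in A2780 and from 124 ± 2.85 to 48.3 ± 5.403 TPM in ES2, and SSR1 from 106 ± 3.94 to 58.99 ± 4.35 and from 252 ± 3.49 to 101 ± 2.603 TPM. The falls of SPCS3 were 0.97 (SE 0.09, adjusted p = 6.4e-06) and 1.35 (SE 0.07, adjusted p = 8e-09), and those of SSR1 0.84 (SE 0.09, adjusted p = 2.34e-05) and 1.32 (SE 0.04, adjusted p = 7.24e-11). SAR1B, a GTPase of the COPII coat, rose by 1.17 (SE 0.17, adjusted p = 0.000157) and 1.46 (SE 0.08, adjusted p = 2.45e-08), and SEC61A2 rose by 0.89 (SE 0.09, adjusted p = 8.62e-06) and 1.31 (SE 0.12, adjusted p = 1.99e-06). In both lines siVRK1 lowered MBTPS2, the protease that makes the second cut in ATF6, from 15.04 ± 0.514 to 8.91 ± 0.2901 TPM in A2780 and from 10.1 ± 0.432 to 4.37 ± 0.4097 TPM in ES2. CREB3L1, a relative of ATF6, fell in ES2 by 2.07 (SE 0.12, adjusted p = 1.9e-08) with siVRK1 and 1.14 (SE 0.12, adjusted p = 6.28e-06) with luteolin. Of the 11 signalling genes 3 rose and 4 fell in A2780 with siVRK1, and 2 rose and 5 fell in ES2. Of all genes, 13.8% were called higher and 27.0% lower in A2780, and 26.8% and 28.0% in ES2. With luteolin 3 of the 11 rose and 2 fell in A2780, beside 45.6% and 19.9% of all genes. In ES2 1 rose and 5 fell with luteolin, beside 22.6% and 25.8%.

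The promoters of the list hold sequence elements that are known to respond to ER stress. The ER stress response element, ERSE, was searched as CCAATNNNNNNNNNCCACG and the element ERSE-II as ATTGGNCCACG, on both strands, in RefSeq windows from 250 bases before to 50 after each start site (assembly GRCh38.p14). Of the 33 genes, 29 were searched, and 8 of these held ERSE and 3 held ERSE-II. The other 4 genes of the list were not searched, so its counts do not cover their promoters. Among all 35116 windows 27 held ERSE, which is 0.0769%, and 19 held ERSE-II, which is 0.0541%. By gene, 25 of 27305 symbols held ERSE and 19 held ERSE-II, with the genes of the list among them. The list was picked by name for a response in which these elements are known, so the counts are no test of it. The 2 patterns share the letters CCACG, and no gene held both. Each match is shown with 5 bases on either side and the fixed letters in capitals, 5′ to 3′ on the strand on which it reads, because the rule did not use them. Of the 29 genes, 18 held neither element.
CALR: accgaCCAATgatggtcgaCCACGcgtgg
CANX: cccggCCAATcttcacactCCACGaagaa
CRELD2: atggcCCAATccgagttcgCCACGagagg
ERO1B: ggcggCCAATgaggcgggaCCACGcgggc
HSP90B1 upstream: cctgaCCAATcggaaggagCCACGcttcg
HSP90B1 downstream: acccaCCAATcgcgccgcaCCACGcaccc
HSPA5: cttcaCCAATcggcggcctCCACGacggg
PDIA6: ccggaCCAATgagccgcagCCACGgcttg
XBP1: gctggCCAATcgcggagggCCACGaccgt
HERPUD1: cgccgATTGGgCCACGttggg
HYOU1 near: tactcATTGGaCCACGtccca
HYOU1 far: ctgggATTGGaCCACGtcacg
SDF2L1: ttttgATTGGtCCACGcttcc

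In GRCh38.p14 the motif letters of HSPA5 are at chr9:125241391-125241409, which is -66 to -48 from the start site, those of XBP1 at chr22:28800603-28800621, -52 to -34, and those of PDIA6 at chr2:10812853-10812871, -86 to -68, all on the strand of the gene. CANX has its match at chr5:179698778-179698796, across the start site, and HSP90B1 at chr12:103930216-103930234 on its own strand and at chr12:103930321-103930339 on the opposite strand. On the opposite strand to the gene are also those of CALR at chr19:12938384-12938402, CRELD2 at chr22:49918554-49918572 and ERO1B at chr1:236282183-236282201. HERPUD1 has its ERSE-II at chr16:56932025-56932035 on its own strand, and HYOU1 has a pair at chr11:119057274-119057284 and chr11:119057380-119057390 and SDF2L1 1 at chr22:21642114-21642124, on the opposite strand. Of the 11 genes with a match, 8 were called higher with luteolin in A2780 and 1, SDF2L1, lower. This stands beside 26 higher and 2 lower of all 33 genes of the list, and 45.6% and 19.9% of all genes. With luteolin in ES2 XBP1 and HERPUD1 rose, CALR, CANX, CRELD2, HSP90B1, HSPA5, PDIA6 and SDF2L1 fell, and ERO1B and HYOU1 were not called. There 5 of 32 genes of the list rose and 16 fell, beside 22.6% and 25.8% of all genes. A match describes letters and is no evidence of binding, and a window without one lacks only these letters.

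**Figure D5:**
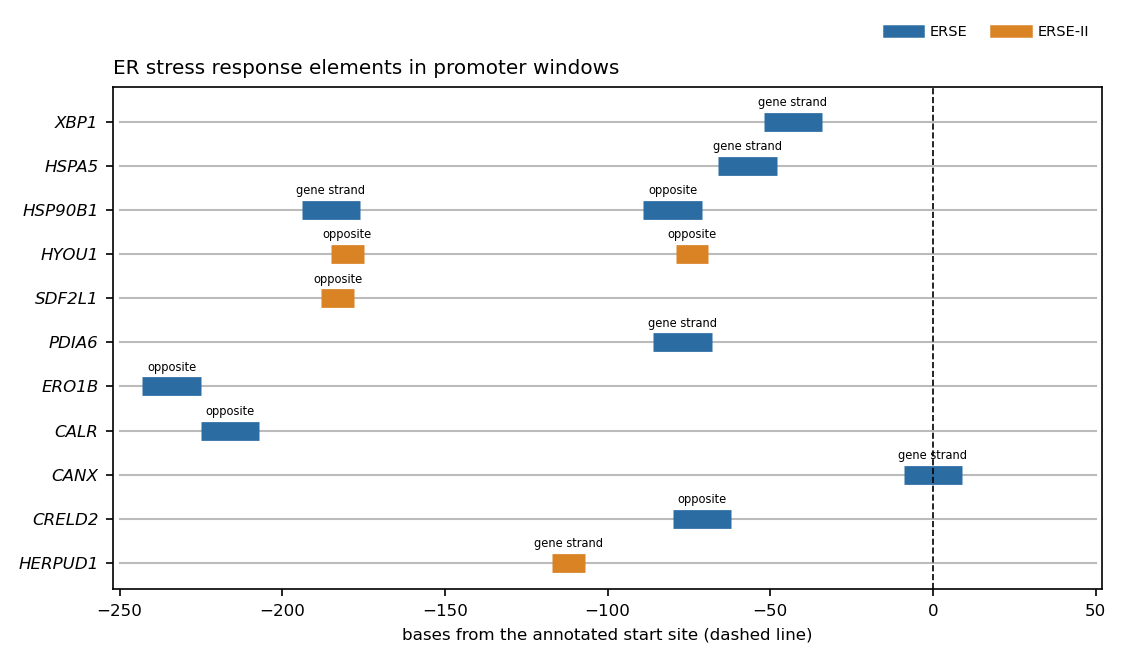
Positions of ERSE and ERSE-II matches (boxes) relative to the start site (bases, horizontal axis) in the promoter windows of the 11 genes with a match, by strand. The matches lie between positions -243 (ERO1B) and 9 (CANX), and those of HSPA5 and XBP1 between -66 and -34.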

How the data were processed

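The authors deposited 1 table of kallisto's TPM, a length-corrected share of transcripts, per transcript, and per the submitters' processing notes FastQC, kallisto and the build hg19 were used, with versions not given in the sources used here. Its 193845 lines hold 191887 distinct transcripts, and the 1958 repeats carried identical values and were used once. TPM was summed per gene symbol over 28907 symbols. Left out were 9542 transcripts without a symbol and 19 with several, at 0.514% to 1.03% of a library's TPM. Groups follow the sample titles, because the cell line and siRNA labels count up within a group, and 2 ES2 siVRK1 columns share 1 name (libraries a and b).

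Genes that reached 1 TPM in 3 or more of the fitted libraries were tested with limma 3.58.1 in R 4.3.3 (trend, two-sided, log2 of TPM + 1, Benjamini-Hochberg over all genes, adjusted p below 0.05). Fits within a line used its 12 libraries, and comparisons of lines used all 24. The depth is unknown, so no counting error is given. The steps were tested on simulated data.

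The 33 genes and the 7 lists of 85 other genes were chosen with earlier results of these data known. Named were all 33, VRK1, and per list and treatment up to 2 rises and 2 falls of largest fold among called genes without overlap. A gene that this rule names is not reported here. Transcript types come from GENCODE 29, which held 168749 of the transcripts. No strand setting is given, and exons of 10 of the 33 genes overlap a gene of at least 1 TPM. The pseudogene PDIA3P1 averaged 3.80 TPM and may share reads with PDIA3. Alternatives were other scalings, pseudocounts, filters and sets of libraries, removal of mitochondrial mRNAs, a replicate block and leaving out each library. Added after seeing the data were protein-coding transcripts only, which also drops transcripts outside GENCODE 29, and the sum of the XBP1 transcripts without the 26 bases.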

Additional observations from a re-analysis of the deposited data

Results flagged for a closer look

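The change with luteolin differed between the lines in the test of the difference itself (ES2 minus A2780, log2 of TPM + 1, not corrected for the median of all genes, -0.20) for 32 genes. It was lower in ES2 for SEC24D (-1.75), EIF2AK3 (-1.39), SEL1L (-1.34), DNAJB9 (-1.33), EDEM1 (-1.05), CANX (-0.90), ERO1B (-0.82), HYOU1 (-0.81), DNAJC3 (-0.79), EDEM3 (-0.77), EDEM2 (-0.77), HSPA5 (-0.74), CALR (-0.67), DNAJB11 (-0.67), HSP90B1 (-0.66) and DERL2 (-0.56). Smaller differences in this direction were found for CRELD2 (-0.55), HERPUD1 (-0.55), OS9 (-0.54), P4HB (-0.53), PDIA4 (-0.53), SEC61B (-0.48), SYVN1 (-0.47), DERL1 (-0.44), PDIA3 (-0.37), ERO1A (-0.37), ATF6 (-0.33), SDF2L1 (-0.32), PDIA6 (-0.31) and MANF (-0.25). It was higher in ES2 for XBP1 (0.63) and DERL3 (0.87).

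The change with siVRK1 differed between the lines in the same test for 13 genes. It was lower in ES2 for SEC24D (-1.21), EDEM2 (-0.73), XBP1 (-0.35), SDF2L1 (-0.31), SEC61B (-0.30), HSPA5 (-0.28) and CALR (-0.22). It was higher in ES2 for PDIA4 (0.17), P4HB (0.20), HSP90B1 (0.21), PDIA3 (0.27), ERO1B (0.61) and DERL3 (1.06). DERL3 was near 0 TPM in ES2 and passed the filter only through A2780, so both its values are the A2780 fall, and neither was called with a pseudocount of 0.1 (adjusted p = 0.223 with luteolin and 0.136 with siVRK1).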

How the results depend on the processing

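Among single genes, 2049 of the called values kept direction and call under the alternatives other than leaving out a library, 78 lost the call and 15 reversed. Of the values without 1 library, 2007 kept both and 69 lost the call. Under median-of-ratios scaling the A2780 siVRK1 counts were 4 higher with a median of -0.15, A2780 luteolin gave 7 lower with a median of 0.21, the siVRK1 difference between lines 2 higher, 13 lower and -0.14, the luteolin difference a median of -0.34, A2780 luteolin minus siVRK1 17 higher, 3 lower and 0.32, and the controls -0.24. Quantile normalization gave 5 higher and a median of -0.16 for A2780 siVRK1, 0.54 for A2780 luteolin minus siVRK1 and -0.31 for the controls. The single A2780 siVRK1 rise became 0 with no filter, 2 with a filter of 5 TPM, with only the groups compared or without mitochondrial mRNAs, and 3 on protein-coding transcripts. A pseudocount of 0.1 left 1 gene higher in the luteolin difference, and protein-coding transcripts gave 0.52 for A2780 luteolin minus siVRK1.

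Reversed values were, under median-of-ratios scaling, CRELD2 -0.023, DERL2 -0.045, PDIA4 -0.14 and SEC61B -0.063 for A2780 luteolin, CALR -0.12, CRELD2 -0.019, MANF -0.091 and PDIA6 -0.18 for A2780 luteolin minus siVRK1, and HSP90B1 0.036 for the controls. Under quantile normalization they were ATF6 -0.073 for A2780 luteolin and 0.029 for its difference, and CANX 0.042 for ES2 luteolin. On protein-coding transcripts they were PDIA4 0.093 for ES2 siVRK1 and CANX -0.25 for ES2 luteolin minus siVRK1 and -2.06 for the controls. The cause was not tested, except that most ES2 CANX TPM lies outside the protein-coding set.

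Leaving out 1 library gave 0 to 2 rises for A2780 siVRK1 and 0 to 1 falls for A2780 luteolin minus siVRK1. Replicate numbers did not pair the samples, with same-number correlations of -0.108 to 0.0619. With the replicate block, A2780 siVRK1 gave 1 higher and 19 lower, A2780 luteolin 26 and 2, ES2 luteolin 5 and 16, A2780 luteolin minus siVRK1 29 and 0, the luteolin difference 2 and 29, and the controls 11 and 21. The block ended the calls of EDEM2 and SEC61B for A2780 siVRK1, PDIA6 for A2780 luteolin minus siVRK1 and HERPUD1 for the luteolin difference, and the 1 gene higher for A2780 siVRK1 was then ERN1 (adjusted p = 0.0303). No paired analysis was possible for comparisons with ES2 siVRK1 because 2 of its columns share 1 name and carry no number. The XBP1 share kept its direction in all alternatives run, at 2.55 to 3.84 percentage points for A2780 luteolin and 11.3 to 12.6 for ES2 luteolin without 1 library. Depth is unknown, so genes near 1 TPM, such as ERO1B in ES2, are the least certain.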
